A study of Mus musculus with 5 samples.

Results

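The genes described here encode the machinery that stores neurotransmitter in synaptic vesicles and fuses those vesicles with the presynaptic membrane. They were taken by gene symbol from the array's probe set annotation: the synapsins Syn1 to Syn3, synaptophysin (Syp), the Sv2, Syt, Stx, Vamp, Snap, Cplx, Rims and Stxbp families. Of 67 mouse genes with such a symbol, 52 had a probe set, on 99 probe sets in all, out of 12393 genes with a probe set of their own. The other 15 are named by no probe set in that annotation, and they include Sv2b and Rims1. A further 12 genes lay below the filter on low signals, so 40 release genes were measured, out of 6550 measured genes. The rule by symbol used no measured value, but it was chosen with earlier results of these data known. The filter used mean signal over the same arrays.

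At a synapse, a vesicle filled with transmitter is tethered by synapsins to its reserve cluster, docked at the active zone by RIM proteins and primed there. Fusion is driven by SNARE proteins: a synaptobrevin (Vamp) on the vesicle zippers up with a syntaxin (Stx) and a Snap25-type protein on the plasma membrane. Stxbp proteins of the Sec1/Munc18 family guide that assembly, complexins hold it in check, and synaptotagmins (Syt), many of which bind calcium, couple it to calcium entry. Neurons of the hypothalamus use closely related SNAREs to release peptides from dense core vesicles, and all cells use other members of the same families for traffic between Golgi, endosomes and lysosomes.

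Laser-microdissected ventromedial hypothalamus (VMH) of C57Bl/6 mice was profiled on 5 Affymetrix arrays, each the only array of its group. The animals received 7 electroconvulsive shocks (ECS) and were killed 6 h or 2 h after the last one, or received 1 shock and were killed 6 h or 2 h later, or were sham-treated and killed at 2 h. Shocks were given bilaterally through ear clips under isoflurane, sham animals were handled alike without a shock, and RNA of 2 or 3 animals was pooled per sample. The study describes 2 rounds of array work on separate animals, and only 1 value per group was used here, so whether a value combines both rounds is not known. The sham group has no 6 h array, so comparisons of 6 h arrays with it are not matched in time. The labels give no age or sex. The titles name the VMH, whereas a description field of the same samples says PVN, the paraventricular nucleus. The VMH factor Nr5a1 read 130 and 123 on the 7-shock arrays at 6 h and 2 h, 158 and 67.3 on the single-shock arrays at 6 h and 2 h, and 95.4 on the sham array. Of 5 PVN markers 3 were measured, Sim1 was below the filter and Crh is named by no probe set in the annotation. Oxt (oxytocin) read 52.1 and 52.6 after 7 shocks at 6 h and 2 h, 11.5 and 27.9 after 1 shock at 6 h and 2 h, and 16.5 in sham. Avp (vasopressin) read 30.3 and 46.7 after 7 shocks at 6 h and 2 h, 49.4 and 8.22 after 1 shock at 6 h and 2 h, and 9.94 in sham. Trh (thyrotropin-releasing hormone) read between 110.2 and 158 on the 5 arrays. Markers of both nuclei were thus measured, and these values do not settle which label holds.

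Readings are given as scaled signals: the deposited intensity plus 1.2, with every array brought to the same median over its kept probe sets. Before this step the arrays' medians of log2 signal lay 0.49 (7 shocks, 6 h), 0.52 (7 shocks, 2 h), 0.41 (1 shock, 6 h) and -0.12 (1 shock, 2 h) from the sham array, so differences below are relative to those shifts. The ratio of 3' to 5' signal for Gapdh, a measure of RNA integrity, was 5.55 and 5.88 on the 7-shock arrays at 6 h and 2 h, 5.37 and 8.77 on the single-shock arrays at 6 h and 2 h, and 6.67 on the sham array. For actin it was 0.593 and 0.783 on the 7-shock arrays at 6 h and 2 h, 1.1 and 0.889 on the single-shock arrays at 6 h and 2 h, and 0.799 on the sham array. The seizure-induced gene Fos read 185 on the single-shock 2 h array and 75.2 on the 7-shock 2 h array, against 12.7 on the sham array. Of 3 measured cortical neuron markers, Tbr1 and Camk2a were lowest on the single-shock 6 h array. Tbr1 read 1.90 there, from a deposited value of only 0.9, and between 63.9 and 132 on the other arrays. The third, Nrgn, read 76.2 there and was lower, at 74.4, on the single-shock 2 h array. A measurement of 1 array per group has no replicate error, so no test is given. Differences are on a log2 scale, and 2-fold (a log2 difference of at least 1) is used only as a mark of size. Signals of different probe sets are not compared with each other.

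Snap25, Vamp2 and Syp were nearly level across the 5 groups. Snap25, the plasma membrane SNARE that carries a pair of helices of the fusion complex, read 6873 and 6503 on the 7-shock arrays at 6 h and 2 h, 6431 and 7180 on the single-shock arrays at 6 h and 2 h, and 6318 on the sham array. Its highest and lowest arrays differed by only 0.18 on the log2 scale. Vamp2, the main vesicle SNARE of fast synapses, read 2247 and 2889 after 7 shocks at 6 h and 2 h, 2426 and 2693 after 1 shock at 6 h and 2 h, and 2528 in sham. Its range over the arrays was 0.36, and 0.45 on its other probe set. Syp, an abundant vesicle membrane protein, read 1659 and 1913 after 7 shocks at 6 h and 2 h, 1665 and 1590 after 1 shock at 6 h and 2 h, and 1523 in sham, a range of 0.33. These 3 genes kept all their shock arrays within 0.33 of sham on the brightest probe set. Over all measured genes the median range across the 5 arrays was 0.98, and it was 0.99 over the 40 release genes.

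**Figure D1:**
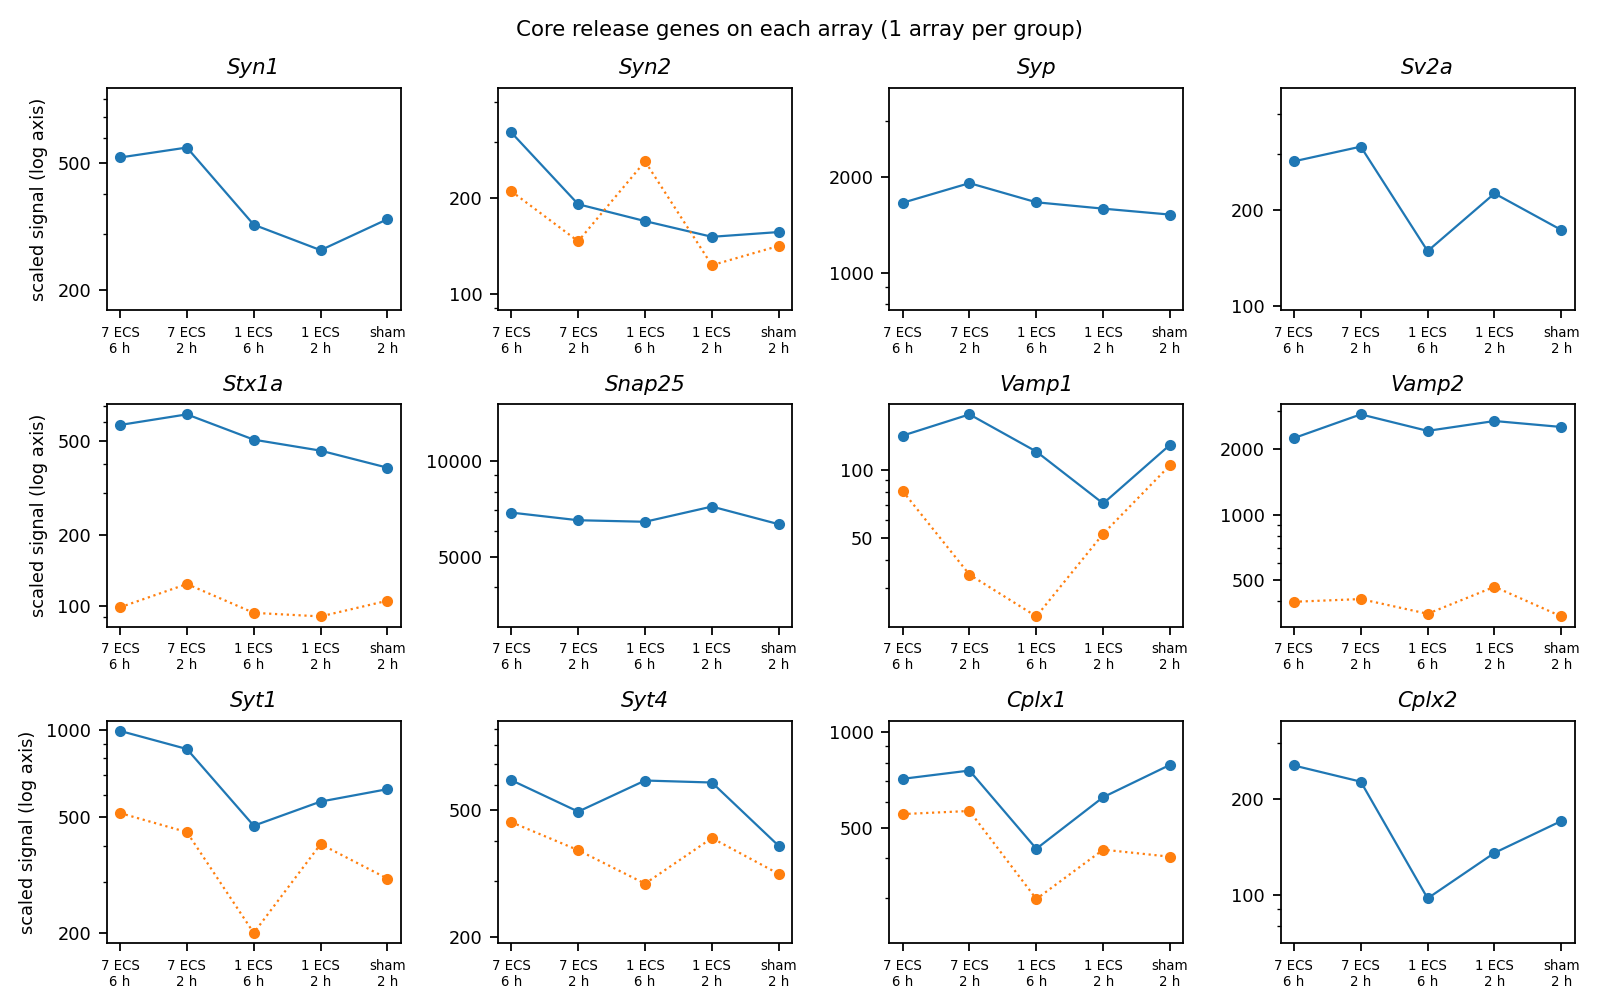
Scaled signal (log axis) of 12 core release genes on each of the 5 arrays, 1 array per group, with 7 ECS and 1 ECS arrays left of sham; each line joins the readings of 1 kept probe set, solid for the brightest and dotted for the other. Snap25 stays between 6318 and 7180, while both 7-shock points of Syn1, Sv2a, Syt1, Cplx1 and Cplx2 stand above both single-shock points on the solid lines.

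Stx1a, the plasma membrane syntaxin of the synapse, was higher than sham on all shock arrays, at 582 and 645 after 7 shocks at 6 h and 2 h and 504 and 453 after 1 shock at 6 h and 2 h, against 384 in sham. Its other probe set placed sham inside the range of the shock arrays, with 99.1 and 124 after 7 shocks at 6 h and 2 h, 93.9 and 90.7 after 1 shock at 6 h and 2 h, and 105.6 in sham. Syt4, a synaptotagmin of dense core vesicles that is inducible by depolarisation in rat cells, read 621 and 494 after 7 shocks at 6 h and 2 h, 619 and 610 after 1 shock at 6 h and 2 h, and 386 in sham. All its shock arrays were above sham, by log2 differences of 0.36 to 0.69, and none reached 2-fold. The second probe set of Syt4 gave 0.54 and 0.25 after 7 shocks at 6 h and 2 h, and -0.10 and 0.37 after 1 shock at 6 h and 2 h. In total 11 of the 40 release genes were above sham on all 4 shock arrays, which held for 19.1% of all measured genes, and 5 were below sham on all 4, against 17.2%. The comparisons with sham share that single array, so a low or high sham reading enters all 4 of them.

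Taken comparison by comparison, few release genes stood 2-fold from sham. At 2 h after 1 shock, 1 of 40 did so, a share of 2.5%, against 12.9% of all measured genes. After 7 shocks at 2 h it was 3 of 40 (7.5%, against 13.8%), at 6 h after 1 shock 5 of 40 (12.5%, against 14.6%) and at 6 h after 7 shocks 4 of 40 (against 14.4%). At 2 h after 1 shock the 1 gene was higher (Stx17, against 6.02% of all genes higher and 6.93% lower). At 2 h after 7 shocks 1 was higher (Syt13, against 6.7%) and 2 were lower (Rims2 and Syt9, against 7.08%). At 6 h after 1 shock 1 was higher (Vamp8, against 6.95%) and 4 were lower (Snap23, Stxbp3, Syt6 and Syt17, against 7.68%), and at 6 h after 7 shocks 3 were higher (Syn2, Syt2 and Vamp8, against 7.11%) and 1 lower (Stx17, against 7.28%). For 7 shocks at 6 h the higher count of 3 in 40 is 7.5%, close to the share of all genes. The median log2 difference of the release genes from sham was 0.11 at 2 h after 1 shock, 0.17 at 2 h after 7 shocks, 0.01 at 6 h after 1 shock and 0.12 at 6 h after 7 shocks. Over all genes the medians in that order were -0.00, -0.01, 0.06 and 0.01. Without rescaling of the arrays, the split of release genes into higher and lower at 2-fold was 0 and 1 at 2 h after 1 shock (1 and 0 with rescaling), 5 and 1 at 2 h after 7 shocks (1 and 2), 4 and 1 at 6 h after 1 shock (1 and 4), and 12 and 0 at 6 h after 7 shocks (3 and 1). Those unscaled splits follow the median of all genes, which lay at -0.13, 0.51, 0.47 and 0.51.

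**Figure D2:**
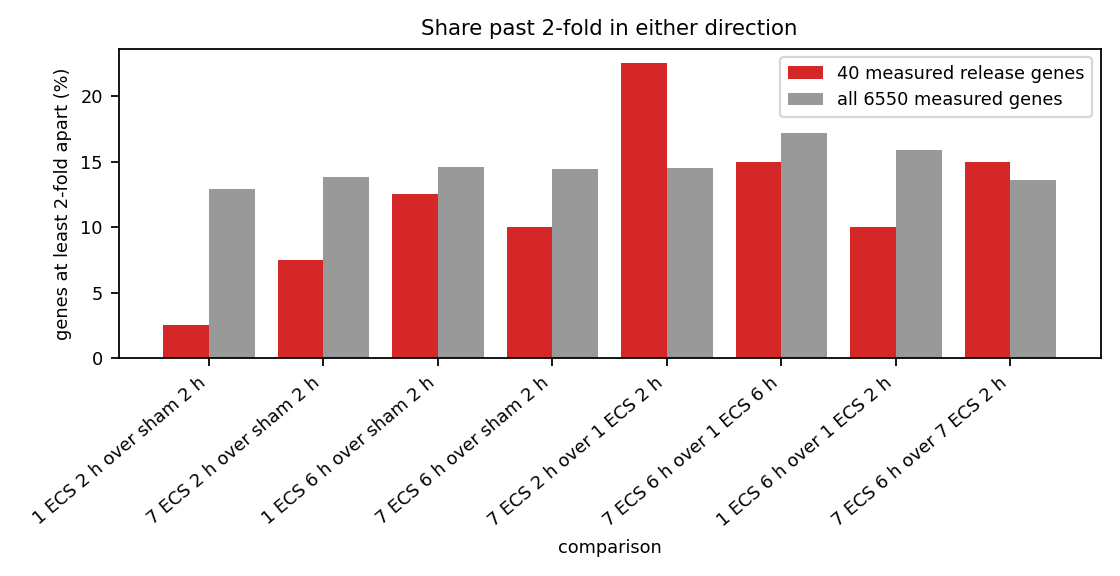
Share of genes at least 2-fold apart in either direction (%, vertical axis) in each of the 8 comparisons, for the 40 measured release genes (red) and all 6550 measured genes (grey). The release genes lie below the grey bar in all 4 comparisons with sham, from 2.5% to 12.5%, and above it in 7 over 1 shock at 2 h (22.5%) and 6 h over 2 h after 7 shocks (15.0%).

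Between 7 shocks and 1 shock, 9 of 40 release genes were 2-fold apart at 2 h, a share of 22.5% against 14.5% of all genes, with 4 higher (Stx12, Syn1, Syt13 and Vamp1, against 7.47% of all genes) and 5 lower (Rims2, Snap23, Stx17, Syt9 and Syt17, against 7.01%). At 6 h the count was 6 of 40, or 15.0% against 17.2%, with 4 higher (Cplx2, Stxbp2, Syt1 and Syt17, against 8.4%) and 2 lower (Stx17 and Vamp8, against 8.78%). Without rescaling the splits were 11 higher and 1 lower at 2 h, where the median of all genes lay at 0.64, and 7 and 2 at 6 h. Of 19 release genes with several kept probe sets, 8 had the same sign on the brightest 2 at 2 h. That share was 42.1%, against 58.1% of all such genes, and at 6 h it was 57.9%, against 58.8%. The 3 of the 19 past 2-fold at 2 h (Rims2, Stx17 and Vamp1) all had the opposite sign on the second probe set. These times use different arrays and different animals, so a gene that differs the same way at both has been seen on separate RNA. Both 7-shock arrays were above both single-shock arrays for 11 release genes, 27.5% of the measured ones, against 17.0% of all genes, and below both for 5 (12.5%, against 19.7%). The 11 were Syn1, Syn2, Sv2a, Stx1a, Vamp1, Syt1, Cplx1, Cplx2, Stxbp2, Stxbp3 and Vamp4. This order of arrays sets no minimum size, and at 2 h the log2 difference was only 0.06 for Stxbp3 and 0.04 for Vamp4. Of the 10 measured vesicle proteins, synaptic SNAREs and complexins, 7 were in this set and 0 in the opposite one. Of the 10 synaptotagmins 1 was in each set, both SM proteins were in the first, and Rims2 and Snap91 were in neither. Of the 16 SNAREs outside the synaptic group, 1 was above (against 17.0% of all genes) and 4 were below (against 19.7%). The pooling of roles was chosen after the values were seen.

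Syn1, the synapsin that ties vesicles to actin in the reserve pool, read 522 and 561 after 7 shocks at 6 h and 2 h, 321 and 267 after 1 shock at 6 h and 2 h, and 334 in sham. Its 7-shock arrays thus exceeded the other 3, with log2 differences between 7 shocks and 1 shock of 1.07 at 2 h and 0.70 at 6 h. Syn2, a second synapsin, read 322 and 191 after 7 shocks at 6 h and 2 h, 169 and 151 after 1 shock at 6 h and 2 h, and 156 in sham. It was 2-fold above sham at 6 h after 7 shocks, at 1.04, and its other probe set, at 0.57 there, did not separate 7 shocks from 1 shock. Sv2a, the vesicle glycoprotein that binds the antiseizure drug levetiracetam, read 285 and 317 after 7 shocks at 6 h and 2 h, 149 and 226 after 1 shock at 6 h and 2 h, and 173 in sham. Its log2 differences between 7 shocks and 1 shock were 0.94 at 6 h and 0.49 at 2 h, both short of 2-fold.

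Syt1, the fast calcium sensor of synchronous release, read 996 and 862 after 7 shocks at 6 h and 2 h, 468 and 567 after 1 shock at 6 h and 2 h, and 626 in sham. Between 7 shocks and 1 shock the log2 difference was 1.09 at 6 h and 0.60 at 2 h. On its other probe set the same differences were 1.38 and 0.14, and at 6 h Syt1 was the only one of the 19 release genes with several kept probe sets for which all of them were past 2-fold the same way. Over all genes with several kept probe sets, the brightest 2 were both past 2-fold the same way in 81 of 2401. Both probe sets also put the 7-shock arrays above both single-shock arrays and above sham.

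The complexins, small proteins that clamp the SNARE complex until calcium arrives, were lowest on the single-shock 6 h array. Cplx2 read 255 and 227 after 7 shocks at 6 h and 2 h, 97.5 and 136 after 1 shock at 6 h and 2 h, and 171 in sham, so that sham lay between the shock groups. Its log2 difference between 7 shocks and 1 shock was 1.39 at 6 h and 0.74 at 2 h. Cplx1 read 712 and 756 after 7 shocks at 6 h and 2 h, 429 and 623 after 1 shock at 6 h and 2 h, and 788 in sham. Here the sham array was the highest, and the second probe set, with 551 and 564 after 7 shocks, 298 and 426 after 1 shock and 405 in sham, placed sham below the 7-shock arrays.

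Vamp1, the synaptobrevin that prevails in brainstem and spinal cord, read 141 and 175 after 7 shocks at 6 h and 2 h, 120 and 70.8 after 1 shock at 6 h and 2 h, and 129 in sham. Its difference between 7 shocks and 1 shock was 1.31 at 2 h and 0.23 at 6 h, and on the second probe set it was -0.60 at 2 h and 1.84 at 6 h, so the probe sets disagreed at 2 h. Of the 7 genes in the set of 11 that had a second kept probe set, 3 (Syt1, Cplx1 and Stx1a) showed the pattern on it too, a share of 42.9%, against 33.6% of all such genes. Under the settings tried for scaling, pseudocount, filter and probe set choice, 10 to 17 release genes showed it, out of 24 to 52 measured. Without rescaling it was 17 (42.5%, against 33.5% of all genes). With the mean of a gene's probe sets it was 10 (25.0%, against 18.1%). The share was larger than that of all genes in each setting, but all settings reuse the same arrays and are no separate evidence.

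**Figure D3:**
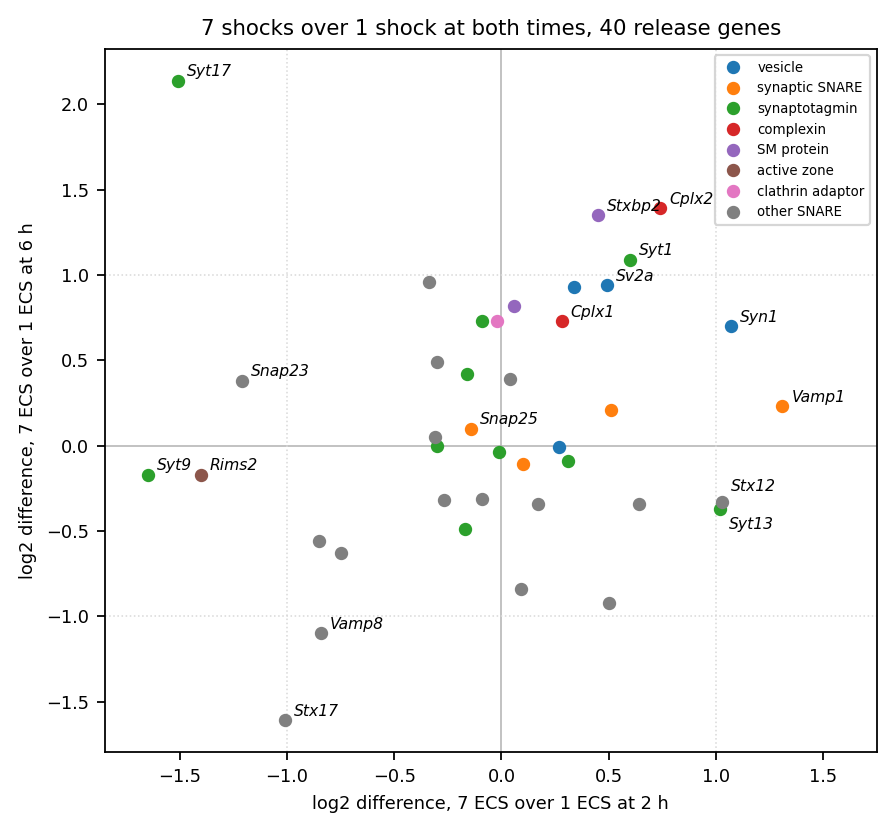
Log2 difference between 7 shocks and 1 shock at 2 h (horizontal axis) and at 6 h (vertical axis) for the 40 measured release genes, coloured by role, with dotted lines at 2-fold. Syn1, Sv2a, Syt1, Cplx1 and Cplx2 lie in the upper right, Stx17 and Vamp8 in the lower left, and Syt17, at -1.51 and 2.14, in the upper left corner.

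Neuron and glial markers also differed between these arrays. General neuron markers had a median log2 difference between 7 shocks and 1 shock of 0.26 at 2 h and 0.22 at 6 h, with 7 of 10 genes above 0 at each time, and a summed signal of 10510 and 10170 after 7 shocks at 6 h and 2 h, 9141 and 9650 after 1 shock at 6 h and 2 h, and 9030 in sham. Of the cortical and amygdalar markers 3 of 6 were measured, with all 3 higher in 7 shocks than in 1 shock at both times. Their sums were 908 and 1158 after 7 shocks at 6 h and 2 h, 295 and 550 after 1 shock at 6 h and 2 h, and 705 in sham, and Slc17a7 and Neurod6 were among those not measured. Camk2a, the forebrain kinase on that list, read 676 and 950 after 7 shocks at 6 h and 2 h, 217 and 412 after 1 shock at 6 h and 2 h, and 547 in sham. The 3 GABAergic markers had a median difference between 7 shocks and 1 shock of -0.31 at 2 h and 0.36 at 6 h. Astrocyte markers gave -0.35 and 0.08, oligodendrocyte markers 0.29 and -0.18, and microglial markers -1.04 and -0.21. Within these mixed lists Slc1a2 (astrocytes) read 590 and 600 after 7 shocks and 381 and 370 after 1 shock, at 6 h and 2 h. Cldn11 (oligodendrocytes) read 505 and 517, against 274 and 325. Region markers differed too. The summed PVN markers read 239.8 and 233.5 after 7 shocks at 6 h and 2 h, 192.0 and 183.9 after 1 shock at 6 h and 2 h, and 136.6 in sham. Between 7 shocks and 1 shock, Avp differed by 2.51 at 2 h and -0.71 at 6 h. At those times Oxt differed by 0.91 and 2.18, and Trh by -0.14 and 0.26. The 5 measured VMH markers had a median difference of 0.22 at 2 h, with 4 above 0, and -0.21 at 6 h, with 1 above 0. The 4 measured arcuate nucleus markers had a median difference between 7 shocks and 1 shock of -0.35 at 2 h and 1.25 at 6 h, when Npy, Pomc and Tac2 were 2-fold higher. The actin ratio of 3' to 5' signal, given above, was lower on both 7-shock arrays than on both single-shock arrays. The Gapdh ratio did not separate them, at 5.55 and 5.88 after 7 shocks and 5.37 and 8.77 after 1 shock, at 6 h and 2 h. The part that these marker and RNA quality differences have in the synapsin, Sv2a, Syt1 and complexin values was not tested. In bulk tissue, fewer cells of a type and less RNA per cell cannot be told apart.

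Across all 40 release genes the differences between 7 shocks and 1 shock at 2 h and at 6 h had a Pearson correlation of 0.15 and a Spearman correlation of 0.19, as a description of genes that share arrays, and 0.04 and 0.05 over the 6550 measured genes. Both differences were above 0 for 11 of the 40 and below 0 for 10, and they had opposite signs for 19. The share above 0 at both times was 27.5%, against 24.6% of all genes, and the share of the same sign was 52.5%, against 52.6%. Stx17 was the only release gene past 2-fold the same way at both times, lower in each, against 70 of 6550 genes lower and 78 higher, so that the rate was close to that of all genes.

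Promoter sequences are shown for 4 of the 11 genes whose 7-shock arrays both lay above both single-shock arrays. Stxbp3 met this order with a log2 difference between 7 shocks and 1 shock of only 0.06 at 2 h, and 0.82 at 6 h. RefSeq windows of GRCm38.p6, 250 bases before to 50 after a start, were matched by symbol for 31 of the 40 measured release genes, on 39 windows. They were searched on both strands for the cAMP response element (CRE) TGACGTCA, its core TGACG, which every CRE contains, and the EGR element GCGTGGGCG, elements of factors that seizures activate. Syn1 and Stxbp3 held the CRE, giving 2 of 39 windows or 5.13%, against 1.79% of all 32851 windows. The CRE begins 159 bases before the start of Syn1 and 108 bases before that of Stxbp3. The core was in 11 windows of 10 genes (28.2%, against 20.8% of all windows), among them Cplx1, which has 2 matches close to its start. The EGR element was in 0 of the 39, against 0.612% of all windows. Neither window of Syt1 and not that of Cplx2 held any of these letters, and a match in such a window is a description of the letters only. The 4 windows below contrast genes with a CRE (Syn1 and Stxbp3), with the core alone (Cplx1) and with neither (Cplx2), written 5′ to 3′ on the gene's strand with matches in capitals. They lie at chrX:20920869-20921168 (minus strand, Syn1), chr3:108840453-108840752 (minus strand, Stxbp3), chr5:108549978-108550277 (minus strand, Cplx1) and chr13:54302306-54302605 (plus strand, Cplx2).
Syn1: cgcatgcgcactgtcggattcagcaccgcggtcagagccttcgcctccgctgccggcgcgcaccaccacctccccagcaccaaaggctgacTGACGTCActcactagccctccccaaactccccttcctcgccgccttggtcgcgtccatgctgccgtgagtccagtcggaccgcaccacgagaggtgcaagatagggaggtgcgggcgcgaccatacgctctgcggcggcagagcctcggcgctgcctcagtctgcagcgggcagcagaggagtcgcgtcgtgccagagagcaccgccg
Stxbp3: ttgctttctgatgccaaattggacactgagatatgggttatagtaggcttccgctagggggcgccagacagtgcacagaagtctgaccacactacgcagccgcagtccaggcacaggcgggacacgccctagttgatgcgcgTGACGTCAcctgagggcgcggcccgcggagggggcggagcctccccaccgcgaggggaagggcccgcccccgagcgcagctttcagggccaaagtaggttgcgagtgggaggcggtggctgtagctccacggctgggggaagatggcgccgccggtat
Cplx1: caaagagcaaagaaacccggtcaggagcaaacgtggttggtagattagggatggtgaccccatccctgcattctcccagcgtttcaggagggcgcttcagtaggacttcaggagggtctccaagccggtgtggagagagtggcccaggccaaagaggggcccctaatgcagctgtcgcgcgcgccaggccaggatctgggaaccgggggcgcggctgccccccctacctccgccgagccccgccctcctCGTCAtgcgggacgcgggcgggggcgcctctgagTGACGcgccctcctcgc
Cplx2: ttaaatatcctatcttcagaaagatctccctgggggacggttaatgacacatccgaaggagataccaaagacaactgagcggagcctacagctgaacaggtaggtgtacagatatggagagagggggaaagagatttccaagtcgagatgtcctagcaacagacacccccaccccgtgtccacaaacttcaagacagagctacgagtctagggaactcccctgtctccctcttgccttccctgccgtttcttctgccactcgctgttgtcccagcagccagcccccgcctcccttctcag

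The Stxbp and Rims genes that were measured gave mixed readings. Stxbp3, a Munc18 protein best known for non-neuronal exocytosis such as glucose transporter delivery, read 171 and 150.0 after 7 shocks at 6 h and 2 h, 96.8 and 144 after 1 shock at 6 h and 2 h, and 229 in sham. It was below sham on all 4 shock arrays and 2-fold below it at 6 h after 1 shock, at -1.24. Stxbp2, the Munc18 protein of granule-secreting blood cells, was higher in 7 shocks than in 1 shock at 6 h by 1.35 on its brightest probe set and lower by -0.98 on its second. Rims2, an active zone scaffold that recruits calcium channels, read 59.1 and 22.4 after 7 shocks at 6 h and 2 h, 66.6 and 59.0 after 1 shock at 6 h and 2 h, and 100.2 in sham. The difference of -2.16 between 7 shocks at 2 h and sham stood against 0.17 on its other probe set.

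Of the remaining synaptotagmins, Syt2, Syt6, Syt9, Syt13 and Syt17 were 2-fold apart in at least 1 comparison. Syt2, a fast calcium sensor of hindbrain synapses, read 82.1 and 36.5 after 7 shocks at 6 h and 2 h, 49.4 and 38.8 after 1 shock at 6 h and 2 h, and 35.3 in sham. The 7-shock 6 h array was the high one, by 1.22 over sham and 1.17 over 7 shocks at 2 h. Syt13, an atypical synaptotagmin that does not bind calcium, read 44.1 and 74.7 after 7 shocks at 6 h and 2 h, 57.0 and 36.8 after 1 shock at 6 h and 2 h, and 35.0 in sham. It was 1.09 above sham in 7 shocks at 2 h. Syt9 was lower in 7 shocks at 2 h than in sham, at -1.14, and lower than in 1 shock at 2 h, at -1.65. Syt6 lay below sham on all 4 shock arrays, by -0.69 to -1.17. Syt3, Syt5 and Syt11 passed 2-fold in none of the 8 comparisons on the brightest probe set. The second probe set of Syt11 gave 1.11 between 7 shocks and 1 shock at 2 h.

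Syt17, a synaptotagmin-like C2 domain protein of the Golgi and early endosome, had the widest spread of all measured release genes, with a range over the arrays of 2.63. It read 49.8 and 24.5 after 7 shocks at 6 h and 2 h, 11.3 and 69.8 after 1 shock at 6 h and 2 h, and 43.9 in sham. Its deposited values were low, from 11.3 to 57.4, beside the filter's cut of 30.0 on mean signal, and 1 probe set was kept. The single-shock 6 h array was the lowest, with a log2 difference of -1.96 from sham. This array is also the one lowest in Tbr1, and the relation of the readings was not tested.

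**Figure D4:**
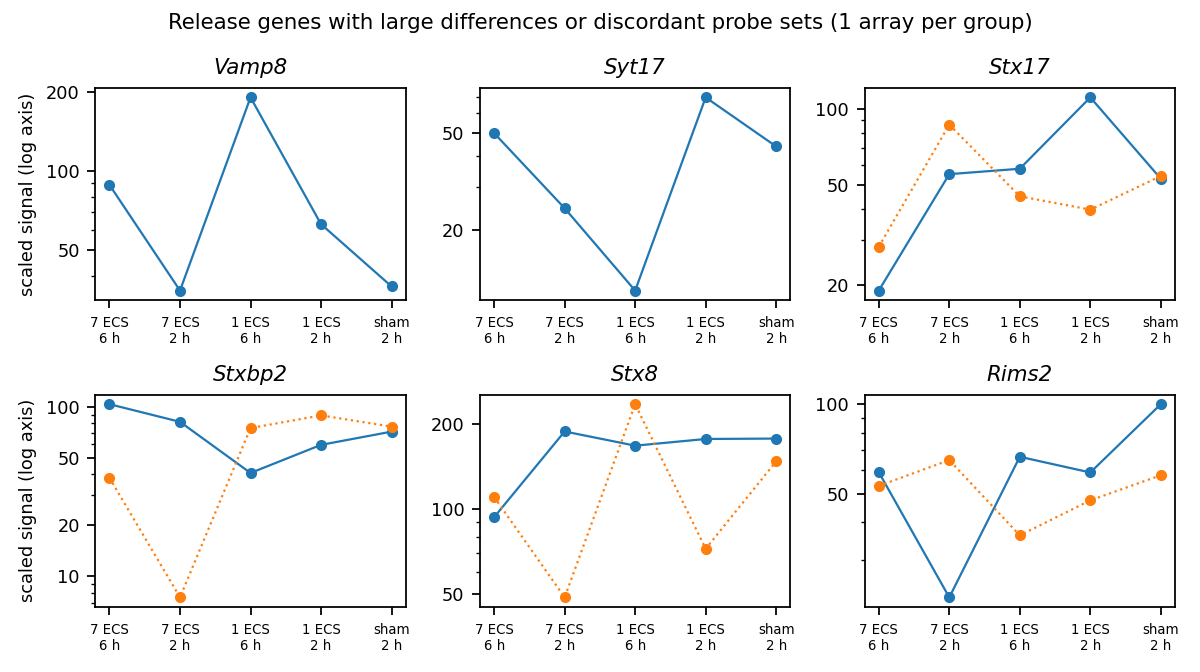
Scaled signal (log axis) on each of the 5 arrays, 1 array per group, of 6 release genes chosen for large differences or disagreeing probe sets; each line joins the readings of 1 kept probe set, solid for the brightest and dotted for the second. Vamp8 peaks at 190 on the single-shock 6 h array, Syt17 is lowest there at 11.3, and the solid and dotted lines of Stxbp2, Stx8 and Rims2 run apart on the 7-shock 2 h array.

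Of the SNAREs outside the synaptic group, Vamp8 had the largest difference in any of the 8 comparisons, a log2 difference of 2.38 between 1 shock at 6 h and sham. This endosomal and granule SNARE is best known from secretory cells outside the nervous system. It read 88.6 and 35.2 after 7 shocks at 6 h and 2 h, 190 and 62.9 after 1 shock at 6 h and 2 h, and 36.5 in sham. Both 6 h arrays were above both 2 h shock arrays, with a log2 difference between 6 h and 2 h of 1.60 after 1 shock and 1.33 after 7 shocks, and Vamp8 was the only release gene 2-fold higher in both of these separate pairs of arrays, against 65 of 6550 genes. The endothelial markers Cldn5 and Tek were also highest on the single-shock 6 h array. Cldn5 read 42.5 and 31.2 after 7 shocks at 6 h and 2 h, 96.2 and 39.0 after 1 shock at 6 h and 2 h, and 41.0 in sham. Tek read 22.8 and 12.4 after 7 shocks at 6 h and 2 h, 93.4 and 11.0 after 1 shock at 6 h and 2 h, and 17.1 in sham, and Pecam1, Cdh5 and Flt1 were not measured. Summed microglial markers read 1051 and 1137 after 7 shocks at 6 h and 2 h, 1092 and 1061 after 1 shock at 6 h and 2 h, and 1415 in sham. Their part in the Vamp8 readings was not tested.

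Between 6 h and 2 h, 4 of 40 release genes were 2-fold apart after 1 shock (against 15.9% of all genes) and 6 of 40 after 7 shocks (15.0%, against 13.6%). After 1 shock Stx12 and Vamp8 were higher at 6 h (against 8.09% of all genes) and Snap23 and Syt17 lower (against 7.79%). After 7 shocks Rims2, Syt2, Syt17 and Vamp8 were higher at 6 h (against 6.82%) and Stx8 and Stx17 lower (against 6.78%). Without rescaling the splits were 5 higher and 2 lower after 1 shock, with the median of all genes at 0.59, and 3 and 2 after 7 shocks. Both 6 h arrays were above both 2 h shock arrays for 7 release genes (17.5%, against 17.6%) and below both for 6 (15.0%, against 13.2%). Stx12, an endosomal syntaxin, read 353 and 330 after 7 shocks at 6 h and 2 h, 443 and 161 after 1 shock at 6 h and 2 h, and 318 in sham. Its low reading at 2 h after 1 shock gave the differences of 1.46 between 6 h and 2 h after 1 shock and 1.03 between 7 shocks and 1 shock at 2 h. Snap23, the Snap25 relative of most non-neuronal cells, read 166 and 181 after 7 shocks at 6 h and 2 h, 127 and 421 after 1 shock at 6 h and 2 h, and 327 in sham. Its log2 difference between 6 h and 2 h after 1 shock was -1.73, with the single-shock 2 h array the highest of the 5.

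Stx17, the syntaxin that drives fusion of autophagosomes with lysosomes, read 19.0 and 55.1 after 7 shocks at 6 h and 2 h, 57.9 and 111 after 1 shock at 6 h and 2 h, and 52.8 in sham. Its second probe set read 28.3 and 86.7 after 7 shocks at 6 h and 2 h, 45.0 and 39.8 after 1 shock at 6 h and 2 h, and 54.1 in sham. Both probe sets made the 7-shock 6 h array the lowest, with log2 differences of -1.54 and -1.61 from 7 shocks at 2 h, whereas they gave -1.01 and 1.12 between 7 shocks and 1 shock at 2 h. Stx8, a late endosomal syntaxin, was lower at 6 h than at 2 h after 7 shocks by -1.01 on its brightest probe set and higher by 1.18 on the second. The other 11 of these 16 SNAREs (Stx3, Stx4a, Stx5a, Stx6, Stx7, Stx18, Snap29, Snap47, Vamp3, Vamp4 and Vamp7) passed 2-fold in no comparison on the brightest probe set. Another kept probe set did so for Stx3 and Vamp7, at 1.18 and 1.19 between 7 shocks at 6 h and sham. The same held for Stx6, at 1.35 between 6 h and 2 h after 1 shock, and Vamp4, at 1.22 between 7 shocks and 1 shock at 6 h. For Vamp3 it was 1.70 between 7 shocks and 1 shock at 2 h. On its brightest probe set Vamp3, the ubiquitous relative of Vamp2, was lower in 7 shocks than in sham, by -0.95 at 6 h and -0.84 at 2 h. All its other kept probe sets were lower too except the least bright, which gave 0.96 and 1.59. Snap91, a clathrin adaptor of vesicle recycling that shares the symbol but is no SNARE, was 0.73 above sham at 6 h after 7 shocks.

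**Figure D5:**
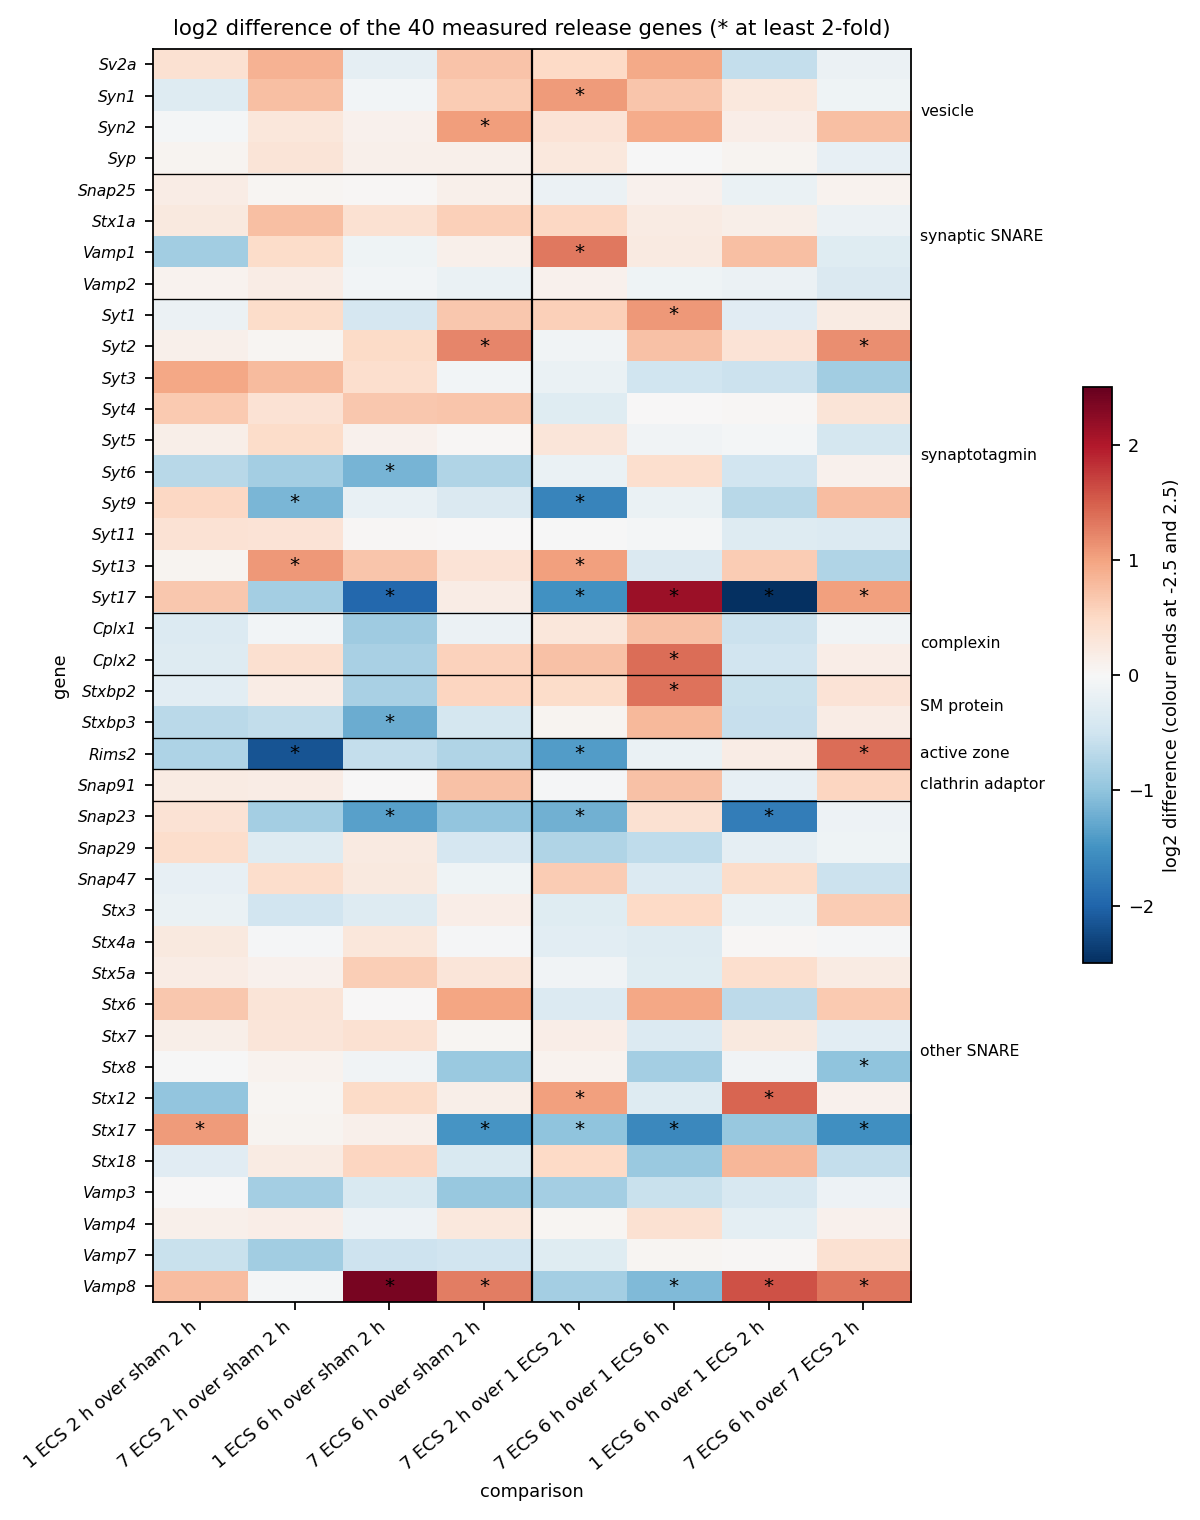
Log2 differences (colour, red higher in the first-named group, scale ending at -2.5 and 2.5) of the 40 measured release genes, grouped by role, in the 8 comparisons; asterisks mark at least 2-fold. Vesicle proteins and complexins are red in both columns of 7 over 1 shock apart from Syp at 6 h, at -0.01, and 22 of the 40 genes carry no asterisk.

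Other genes of vesicle priming, filling and recycling were described in the same way. Of 53 genes on that list 38 were measured, and their median differences from sham were -0.00, 0.17, 0.17 and 0.09 at 2 h after 1 shock, 2 h after 7 shocks, 6 h after 1 shock and 6 h after 7 shocks. At 2 h after 1 shock 3 of 38 were 2-fold lower (Unc13a, Unc13b and Bsn, against 6.93% of all genes) and 0 higher. At 6 h after 1 shock 4 were lower (Unc13b, Bsn, Pclo and Rph3a, against 7.68%) and 1 was higher (Doc2b, against 6.95%). The kept probe sets of Doc2b disagreed there, with log2 differences from sham of 1.3 for the counted one and -1.13 for the other. After 7 shocks at 6 h Unc13b alone was lower (against 7.28%). After 7 shocks at 2 h the counts were 0 in both directions (against 13.8% in either). Between 7 shocks and 1 shock 3 were higher and 0 lower at 2 h (against 14.5% in either direction), and 3 higher and 3 lower at 6 h (against 17.2%). Bsn, the giant active zone scaffold bassoon, read 293 and 335 after 7 shocks at 6 h and 2 h, 102.1 and 141.0 after 1 shock at 6 h and 2 h, and 358 in sham. Its partner Pclo (piccolo) read 271 and 153 after 7 shocks at 6 h and 2 h, 71.2 and 158 after 1 shock at 6 h and 2 h, and 243 in sham. For Bsn both single-shock arrays were below the other 3, and for Pclo only the single-shock 6 h array stood apart.

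The 12 release genes below the filter were Cplx3, Cplx4, Stx2, Stx19, Stxbp4, Stxbp6, Syn3, Syt7, Syt8, Syt10, Syt12 and Vamp5, and no fold is given for them. Besides Sv2b and Rims1, the genes without a probe set in the annotation included Rims3, Rims4, Stx11, Stx16, Stxbp5, Stxbp5l, Sv2c, Syt14, Syt15, Syt16 and Vamp9, which were not analysed here.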

How the data were processed

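Deposited values were MAS5 signals, per the submitters' processing notes: 1 linear intensity per probe set. RNA had been amplified with the Ovation Pico WTA System, per the labels' protocols. Software version and target intensity are not stated. The table held 22690 probe sets. Its 64 controls, 691 probe sets with several symbols and those with no symbol were left out, leaving 20380. Values were log2-transformed after adding 1.2, their 10th percentile. Filtering kept the 10192 probe sets whose mean signal was in the upper 50%, each array was centred on their median, and a gene took its brightest kept probe set. All 52 symbols are current RefSeq symbols, and promoters are RefSeq's for GRCm38.p6.

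With 1 array per group no test was run and precision is limited by the number of arrays. The calculation was tested on simulated arrays. Named were all genes past 2-fold in any of 8 comparisons, 16 core release genes whatever their values, and other pathway genes 2-fold from sham. The members and lists were chosen with earlier results of these data known. The count of genes whose 7-shock and single-shock arrays do not overlap was added after the data were seen. No protein sequences were used here. Alternatives covered scaling, pseudocount, filter, probe set choice and membership. Python 3.11.15, numpy 2.4.6, pandas 2.3.3 and matplotlib 3.10.9 were used.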

Additional observations from a re-analysis of the deposited data

Results flagged for a closer look

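Syt17 differed in opposite directions in comparisons of the same kind, past 2-fold each time. Between 7 shocks and 1 shock its log2 difference was -1.51 at 2 h and 2.14 at 6 h. Between 6 h and 2 h it was 1.02 after 7 shocks and -2.63 after 1 shock. These 4 values come from the same 4 arrays, and the difference between them was not tested, since each group has 1 array. The other probe set of Syt17 lay below the filter and was not used.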

How the results depend on the processing

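No paired analysis was possible because each group has 1 array, and no array could be left out of a group. Counts of release genes past 2-fold in either direction moved by over 1.5 times in 6 of 8 comparisons with no filter, in 7 with a stricter one and in all 8 when probe sets had to agree. With no filter (52 genes) they were 5 for 1 shock over sham at 2 h, 7 for 7 shocks over sham at 2 h, 9 for 1 shock at 6 h over sham, 14 and 12 for 7 shocks over 1 shock at 2 h and 6 h, and 12 for 6 h over 2 h after 1 shock. The shares of all genes, in that order, were 24.9%, 26.4%, 28.3%, 26.4%, 30.0% and 28.8%. In the top 25% of probe sets (24 genes) they were 0 for 7 shocks at 2 h, 2 for 1 shock at 6 h and 2 for 7 shocks at 6 h over sham, 4 and 2 for 7 shocks over 1 shock at 2 h and 6 h, and 2 and 1 for 6 h over 2 h after 1 and 7 shocks, against 6.57%, 7.39%, 7.37%, 7.02%, 9.08%, 7.99% and 6.31% of all genes. Fewer or more genes were measured under these filters by construction. Without rescaling they were 6 and 12 for 7 shocks over sham at 2 h and 6 h, and 7 for 6 h over 2 h after 1 shock, and the median for 7 shocks over 1 shock at 2 h was 0.66, beside 0.64 for all genes. For 1 shock over sham at 2 h the count was 3 with quantile normalization, 0 with the pseudocount at the 25th percentile and 0 with the mean of a gene's probe sets. Without suffixed probe sets it was 3 for 1 shock at 6 h over sham, and for these the cause was not tested. A requirement, chosen after seeing the data, that all of at least 2 kept probe sets pass the same way left 1 of 19 genes for 7 shocks over 1 shock at 6 h (Syt1), 1 for 6 h over 2 h after 7 shocks (Stx17) and 0 in each of the other 6 comparisons. With the mean of probe sets, Stx17 turned to 0.06 for 7 shocks over 1 shock at 2 h and Stx8 to 0.09 for 6 h over 2 h after 7 shocks, where their probe sets disagree. Of 1496 values of named genes under the alternatives, 1450 moved by less than 1.5-fold, 44 moved more and those 2 reversed. Leaving out Snap91 or adding Sytl genes moved no count by over 1.5 times and no median by that much.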
